A study of Mus musculus with 4 samples.

Results

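The AP-1 and immediate early genes Fos, Fosb, Fosl1, Fosl2, Jun, Junb, Jund, Egr1, Atf3 and Ier2 were followed in RNA-seq libraries of dental progenitor cells, sorted from mouse lower incisors and labelled as dental pulp. They were chosen by symbol as the Fos and Jun families plus stress genes that cell dissociation is known to induce. All 10 were found among the 55487 gene IDs of the count table and had counts in every library. Knockout mice carried floxed Ptip alleles with Sp7-cre (2 libraries). Control mice carried the same floxed alleles without Cre (2 libraries), so effects of Cre and of Ptip loss cannot be told apart. All were C57 mice at postnatal day 30, and Ptip, also called Paxip1, encodes a subunit of histone methyltransferase complexes. Sp7-cre is known to act in the bone and odontoblast lineages, and which of the sorted cells lost the gene was not measured. The labels do not say whether a library came from a single animal or a pool, or that libraries came from separate animals, so the p-values below rest on library-to-library spread, which may be technical.

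AP-1 is a family of dimers in which a Fos protein pairs with a Jun protein, or Jun proteins pair with each other, through leucine zippers. The dimers bind DNA at the motif TGANTCA and, with partners of the ATF family, at motifs like TGACNTCA. Genes such as Fos, Egr1 and Ier2 are called immediate early because a stimulus raises their transcripts within minutes, without new protein. Growth factors, mechanical strain and the enzymatic release of cells from tissue all do so. In the skeleton, Fos proteins act in osteoclasts, osteoblasts and chondrocytes. FACS removed cells bearing CD45, Ter119 or Tie2, but how the incisor tissue was dissociated is not given in the sources used here. No library of undissociated tissue is among the samples, so the level before dissociation cannot be told apart from a level raised by it.

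The stretches of 150 bases before the start are printed for the 5 members that held a match to TGACG or TGACNTCA. ATF and CREB proteins are known to bind motifs of this kind. Capitals mark matches to TGACG or TGACNTCA on either strand. They come from RefSeq (GRCm38.p6), in which 7 of the 10 members were matched (all but Fosl1, Egr1 and Ier2), and read 5′ to 3′ on the gene's strand.
Fos, chr12:85473740-85473889, plus strand: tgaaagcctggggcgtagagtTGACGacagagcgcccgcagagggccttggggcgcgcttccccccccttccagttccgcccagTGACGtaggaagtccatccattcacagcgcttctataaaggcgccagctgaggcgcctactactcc
Fosb, chr7:19310046-19310195, minus strand: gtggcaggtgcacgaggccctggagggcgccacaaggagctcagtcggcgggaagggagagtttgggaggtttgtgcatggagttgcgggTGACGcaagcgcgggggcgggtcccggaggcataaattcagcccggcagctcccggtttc
Jun, chr4:95052223-95052372, minus strand: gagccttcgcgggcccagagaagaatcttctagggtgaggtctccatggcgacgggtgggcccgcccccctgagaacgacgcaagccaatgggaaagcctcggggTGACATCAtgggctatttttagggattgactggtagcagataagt
Junb, chr8:84978749-84978898, minus strand: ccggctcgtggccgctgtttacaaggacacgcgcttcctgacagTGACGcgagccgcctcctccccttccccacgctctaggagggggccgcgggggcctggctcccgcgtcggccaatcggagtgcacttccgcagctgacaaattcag
Atf3, chr1:191183334-191183483, minus strand: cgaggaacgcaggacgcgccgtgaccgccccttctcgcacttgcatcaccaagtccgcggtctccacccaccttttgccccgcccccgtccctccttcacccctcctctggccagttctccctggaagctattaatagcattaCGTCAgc
The 5-letter motif TGACG lay in 4 of the 7 matched members (Fos, Fosb, Junb and Atf3), and 13.3% of 32851 promoter stretches of this length held it on either strand. In Fos it lay at bases -129 to -125 and -66 to -62 from the start. In Jun the match was to TGACNTCA, at bases -45 to -38, a motif held by 5.7% of the stretches. The AP-1 motif TGANTCA lay in 0 of the 7, and in 4.24% of all stretches. Fosl2 and Jund had none of these motifs in their stretches, and their RefSeq starts lie 671 (Fosl2) and 1210 bases (Jund) from the GENCODE gene start. For Atf3, the RefSeq start lies 34706 bases inside the GENCODE gene, which begins farther upstream. These matches are letters only and say nothing of binding in these cells.

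The libraries held 15154246 to 19142757 counts, which are whole reads per gene without normalisation. A count of 3 corresponded to 0.157 to 0.198 CPM (counts divided by the TMM-scaled library total), and such limits cover counting error only. The targeted gene Paxip1 had 111 and 71 counts in the knockouts, against 407 and 696 in the controls. Both knockouts lay below both controls, with a fitted log2 fold change of -2.91 (SE 0.48), which did not pass edgeR's quasi-likelihood test (Benjamini-Hochberg adjusted p = 0.150). It passed in DESeq2 and in edgeR without knockout 1 (log2 fold change -3.18) or without control 1 (-3.17). The counts cover all exons, so exons outside the deleted part can contribute. The sorted cells were a mixture. Ambn, an enamel matrix gene of ameloblasts, was the most abundant gene of the table by mean CPM, at 30934 and 41020 CPM in the knockouts and 52468 and 18132 CPM in the controls. The dental mesenchyme gene Msx1 stood at 2905 and 2520 CPM in the knockouts and 723 and 845 CPM in the controls. Msx2 stood at 483 and 358 CPM in the knockouts and 87.2 and 81.2 CPM in the controls. Neither passed edgeR (adjusted p = 0.150 for Msx1 and 0.145 for Msx2). Both passed DESeq2 (adjusted p = 0.00043 for Msx1 and 5.8e-06 for Msx2). Of 9 dental mesenchyme markers, DESeq2 called 6 higher and 0 lower, against 2.47% and 5.18% of all genes with an adjusted p. Of 8 tested dental mesenchyme markers, 7 had a positive log2 fold change and 1 a negative one. Barx1, which was not tested, had 3 and 120 counts in the knockouts and 0 and 1 in the controls. Ptprc, the CD45 gene, stood at 39.1 and 9.23 CPM in the knockouts and 140 and 144 CPM in the controls. Tek, the Tie2 gene, stood at 44.7 and 41.7 CPM in the knockouts and 21.6 and 81.0 CPM in the controls.

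The 10 genes were expressed in every library, and none differed between knockout and control beyond the spread between libraries. By edgeR, 0 of the 10 were called higher and 0 lower, where 0% of the 17128 tested genes were called in either direction. Adjusted p-values of the members ranged from 0.501 to 0.986. At an unadjusted p under 0.05, 0 of the 10 passed, against 17.2% of tested genes (7.32% higher and 9.89% lower). DESeq2, which called 2.47% of genes higher and 5.18% lower, also called 0 members. The same was so without the filter on low counts (1.43% of genes higher, 3.2% lower), with the replicate number as a block (0.344% and 1.08%), without knockout 1 (1.13% and 3.69%) and without knockout 2 (0.0784% and 0.00523%). Limma-voom, another scaling, a stricter filter and the fit without control 2 called 0% of genes and 0 members. The groups overlapped for all 10 members, whereas they did not overlap for 50.6% of tested genes. An exact permutation test of a single gene cannot go below p = 0.333 with 2 libraries against 2. The log2 fold changes were positive for 3 members and negative for 7, with a median of -0.22 against a median of 0.0024 over all tested genes. Without control 1 the median of the members was 0.14.

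**Figure D1:**
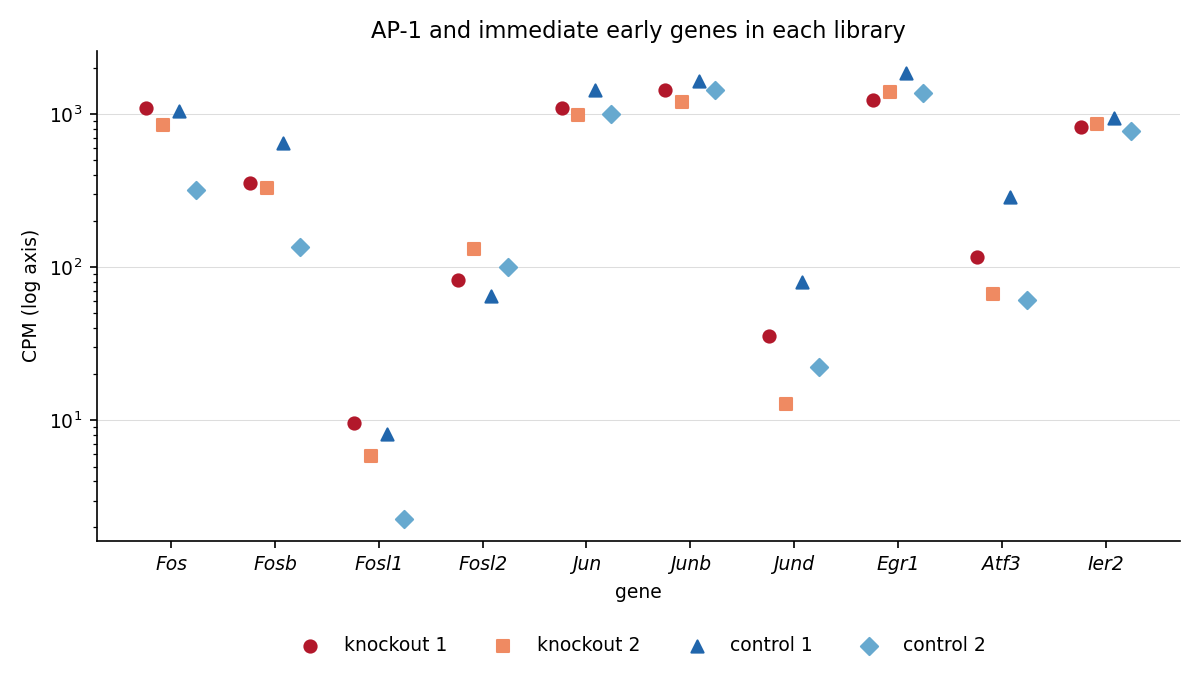
Level of each member in each library, in CPM on a log axis. Each point is 1 library, with the 2 knockouts left of the 2 controls for every gene. The controls lie far apart for Fos, Fosb, Fosl1, Jund and Atf3, and the groups overlap for all 10 genes.

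To compare levels between genes, counts were divided by merged exon length and scaled to the same total in each library (TPM). Junb stood at 1672 to 2095 TPM over the 4 libraries and Ier2 at 1658 to 1833 TPM, so their ranges overlapped. Jun (1002 to 1245 TPM), Fos (461 to 1426 TPM) and Egr1 (839 to 1136 TPM) followed and overlapped each other. By mean TPM these 5 genes ranked between 37 and 86 among the 17128 tested genes, so they were among the most abundant transcripts of the sorted cells. Atf3 (96.2 to 365 TPM) and Fosb (72.8 to 286 TPM) came next with overlapping ranges, below all libraries of the first 5. Jund (24.6 to 132 TPM) overlapped Fosb above it and Fosl2 (18.4 to 44.0 TPM) below it. Fosl1 was the lowest at 3.80 to 14.4 TPM, below every library of Fosl2. The places of Fosl1 and Jund are uncertain, because 57.2% (Fosl1) and 52.6% (Jund) of their exonic bases overlap exons on the other strand. Reads there may not be counted, while TPM divides by the full exon length. The members together took 0.640% and 0.588% of the counts in the knockouts and 0.763% and 0.535% in the controls.

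Among the Fos family, Fos was the most abundant, and control 2 was the lowest library for Fos, Fosb and Fosl1. Fos (ENSMUSG00000021250, chr12:85473890-85477273), the prototype partner of Jun in AP-1, had 21392 and 15119 counts in the knockouts, against 15076 and 5057 in the controls. These were 1094 and 845 CPM in the knockouts and 1046 and 321 CPM in the controls. In CPM, control 1 lay between the knockouts, and control 2 lay below the other 3 libraries. The log2 fold change was 0.50 (SE 0.56, 95% interval -0.82 to 1.83, edgeR adjusted p = 0.711), so these data allow anything from 0.567-fold to 3.55-fold. Without control 1, the log2 fold change was 1.62 and Fos passed edgeR (adjusted p = 0.0488), in a fit that called 0.496% of genes higher and 1.12% lower. Without control 2 it was -0.15, with the opposite sign.

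Fosb (ENSMUSG00000003545, chr7:19302696-19310051), a close relative of Fos that is also induced within minutes, stood at 353 and 328 CPM in the knockouts, against 650 and 135 CPM in the controls. Both knockouts lay between the controls, which differed from each other 4.82-fold. Its log2 fold change was -0.20 (SE 0.66, 95% interval -1.78 to 1.37, edgeR adjusted p = 0.919). It was 1.36 without control 1 and -0.97 without control 2.

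Fosl1 and Fosl2 encode Fra-1 and Fra-2, Fos relatives that lack the strong activation domain of Fos and often accumulate later after a stimulus. Fosl1 (ENSMUSG00000024912, chr19:5447547-5455946) had 187 and 105 counts in the knockouts, against 117 and 36 in the controls, or 9.56 and 5.87 CPM against 8.12 and 2.29 CPM. Its libraries followed the order of Fos, with knockout 1 highest and control 2 lowest. For Fosl1, the log2 fold change was 0.57 (SE 0.76, 95% interval -1.24 to 2.38, edgeR adjusted p = 0.771), 1.78 without control 1 and -0.11 without control 2. Fosl1 is uncertain, because 57.2% of its exonic bases overlap exons of Ccdc85b on the other strand and the libraries do not mark strand. Ccdc85b had 529 and 498 counts in the knockouts, against 229 and 286 in the controls. Fosl2 (ENSMUSG00000029135, chr5:32135801-32157842) stood at 82.8 and 132 CPM in the knockouts, against 64.7 and 100 CPM in the controls. It was the one member with more CPM in control 2 than in control 1. Its fitted log2 fold change was 0.38 (SE 0.40, 95% interval -0.57 to 1.33, edgeR adjusted p = 0.695), and it stayed positive with any library left out, between 0.050 and 0.71.

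Among the Jun family, Jun and Junb varied little and Jund varied most. Jun (ENSMUSG00000052684, chr4:95049034-95052222), the AP-1 subunit that JNK kinases phosphorylate, stood at 1089 and 992 CPM in the knockouts, against 1444 and 1004 CPM in the controls. Control 1 was highest, and control 2 lay between the knockouts. For Jun, the log2 fold change was -0.23 (SE 0.35, 95% interval -1.06 to 0.59, edgeR adjusted p = 0.797), and 0.077 without control 1. Junb (ENSMUSG00000052837, chr8:84974484-84978718), a Jun relative that can restrain Jun, stood at 1433 and 1194 CPM in the knockouts, against 1649 and 1428 CPM in the controls. Knockout 1 and control 2 were nearly level. With a log2 fold change of -0.23 (SE 0.33, edgeR adjusted p = 0.790), its 95% interval ran from 0.499-fold to 1.46-fold, and the sign stayed negative with any library left out. Reads that overlap exons of an antisense gene may be dropped or counted for the wrong gene here too, as the treatment of shared reads is not given. Junos overlaps 7.28% of the exonic bases of Jun and had 45 and 33 counts in the knockouts, against 4 and 19 in the controls. Prdx2 overlaps 7.52% of the exonic bases of Junb and had 12628 and 8024 counts in the knockouts, against 5110 and 4227 in the controls.

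Jund (ENSMUSG00000071076, chr8:70698949-70700616), a Jun relative that most cells express without a stimulus, had 693 and 228 counts in the knockouts, against 1156 and 354 in the controls. These were 35.4 and 12.8 CPM in the knockouts and 80.2 and 22.5 CPM in the controls. In both groups the libraries lay far apart, with a 6.24-fold range over the 4. Jund had the most negative fitted value of the 10, with a log2 fold change of -1.09 (SE 0.72, 95% interval -2.79 to 0.61, edgeR adjusted p = 0.501). It was -2.00 without knockout 1, -0.49 without knockout 2, 0.13 without control 1 and -1.78 without control 2. The level of Jund is uncertain. Of its exonic bases, 52.6% overlap exons of Gm11175 on the other strand. Gm11175 had 0 counts in all 4 libraries, so no reads in the overlap were counted for it, and they may have been dropped.

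The remaining members encode no Fos or Jun protein. Egr1 (ENSMUSG00000038418), a zinc finger factor downstream of ERK and SRF, stood at 1226 and 1399 CPM in the knockouts, against 1852.5 and 1382 CPM in the controls. Control 1 was again highest, and control 2 lay between the knockouts. The log2 fold change was -0.30 (SE 0.34, 95% interval -1.10 to 0.50, edgeR adjusted p = 0.716), -0.53 without control 2 and -0.050 without control 1. Atf3 (ENSMUSG00000026628, chr1:191170296-191218039), a stress-induced bZIP factor that pairs with Jun proteins, stood at 117 and 67.3 CPM in the knockouts, against 286 and 61.4 CPM in the controls. Control 1 stood apart from the other 3 libraries, which lay between 61.4 and 117 CPM. For Atf3, the log2 fold change was -0.91 (SE 0.69, 95% interval -2.55 to 0.73, edgeR adjusted p = 0.566), -1.67 without control 2 and 0.62 without control 1. Ier2 (ENSMUSG00000053560, chr8:84661331-84662852), a nuclear protein gene of the first wave of induction, stood at 823 and 866 CPM in the knockouts, against 937 and 774 CPM in the controls. It had the narrowest range of the 10, at 1.21-fold, and the smallest fitted difference, with a log2 fold change of -0.018 (SE 0.32, 95% interval -0.78 to 0.75, edgeR adjusted p = 0.986).

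**Figure D2:**
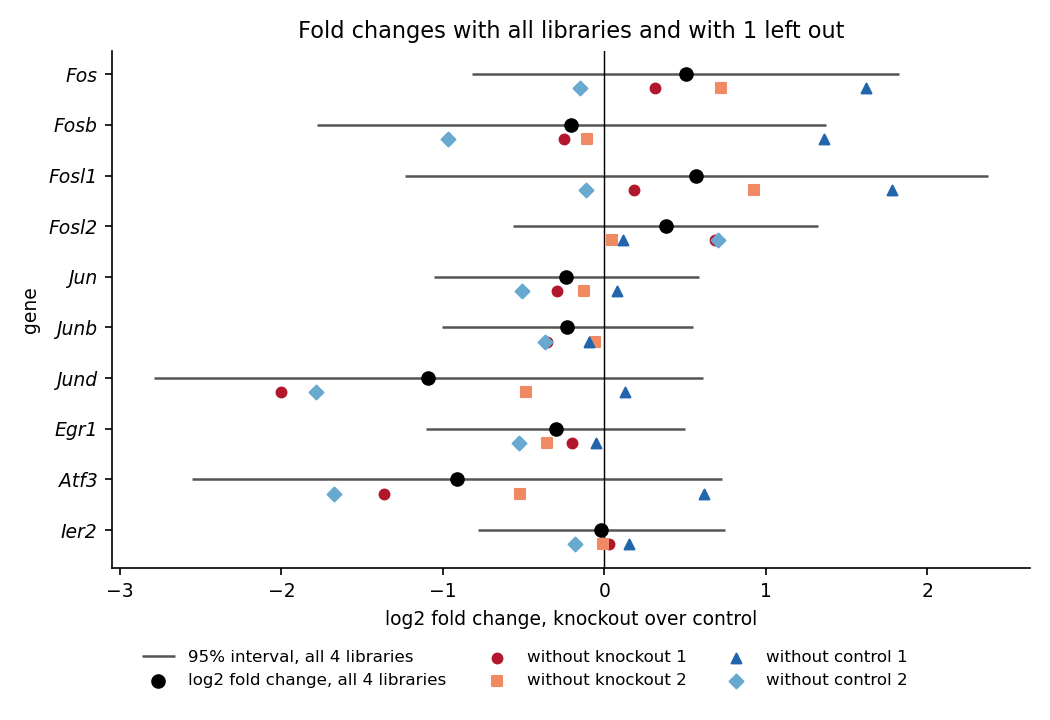
Log2 fold change of each member, knockout over control, from edgeR. Black points and grey lines are the value and its 95% interval with all 4 libraries, and coloured symbols below them the values with 1 library left out. Every interval spans 0, and for Fos, Fosb, Fosl1, Jun, Jund, Atf3 and Ier2 the sign changes with the library left out.

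The members were also compared within each genotype. For 9 of the 10, the absolute log2 difference between control 1 and control 2 exceeded the absolute log2 fold change between genotypes, as it did for 51.0% of all tested genes. Between the knockouts the same held for 5 of 10 members and 43.8% of all tested genes. A difference of 2 single libraries varies more than a difference of 2 group means. The median absolute log2 fold change between genotypes was 0.34 for the members and 0.61 over all tested genes. Control 1 was above control 2 for 9 members, with a median difference of 1.11 on the log2 scale, against a median of -0.03 over all tested genes. The median absolute difference between the controls was 1.17 for the members and 0.62 over all tested genes. Between the knockouts, knockout 1 was above knockout 2 for 7 members, with a median log2 difference of 0.20. Control 1 was the highest library for 7 members, and control 2 the lowest for 5 and the highest for 0. The highest library was knockout 1 for Fos and Fosl1 and knockout 2 for Fosl2.

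**Figure D3:**
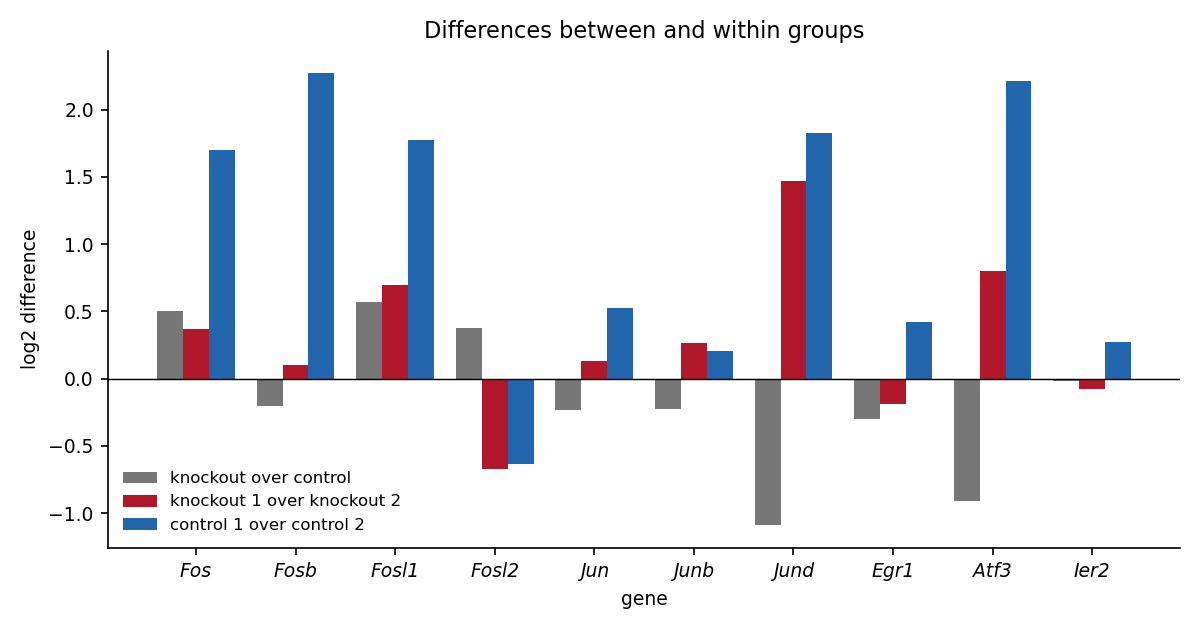
Log2 difference of each member between the genotypes (grey), between the 2 knockouts (red) and between the 2 controls (blue). The blue bars are the tallest for Fos, Fosb, Fosl1, Jun, Jund, Egr1, Atf3 and Ier2 and reach 2.27 for Fosb, and the grey bars stay between -1.09 and 0.57.

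Cell-type markers also differed between the libraries. Summed over 9 dental epithelium markers, expression was 34516 and 41478 CPM in the knockouts and 61922 and 22365 CPM in the controls. Ambn dominates this sum, so its order, with control 1 highest and control 2 lowest, is that of Ambn. The summed members were also highest in control 1 and lowest in control 2 (6262.5 and 5842.5 CPM in the knockouts, 8017 and 5230 CPM in the controls). The epithelium markers as a set did not share this order. Their median log2 CPM, centred per gene, was -0.10 and -0.21 in the knockouts and 0.19 in control 2, and highest in control 1. Of the 9 markers, 5 were lower and 0 higher in both knockouts. Summed over 10 leukocyte markers, expression was 617 and 200 CPM in the knockouts and 4150.5 and 1206 CPM in the controls. In control 1, the largest of the 10 were Cd79a, Laptm5 and Coro1a, at 1740, 1033 and 878 CPM. Of the 10, 7 were lower in both knockouts. Of 8 erythroid markers, 8 were lower in both knockouts, with sums of 86.5 and 105 CPM in the knockouts and 426 and 406 CPM in the controls. Endothelial markers summed to 767 and 757 CPM in the knockouts and 896 and 1356 CPM in the controls, highest in control 2, with 3 of 8 lower in both knockouts. Schwann cell markers summed to 242 and 290 CPM in the knockouts and 463 and 622 CPM in the controls, and pericyte and smooth muscle markers to 456 and 1199 CPM in the knockouts and 767 and 1295 CPM in the controls. The 9 dental mesenchyme markers summed to 3878 and 3786 CPM in the knockouts and 1032 and 1311 CPM in the controls, and 6 of the 8 tested were higher in both knockouts. Each marker of these 7 lists had counts in every library except Barx1, which was at 0 in control 1. Mitochondrial transcripts took 0.868% and 0.436% of counts in the knockouts and 0.507% and 0.780% in the controls. The part of cell mixture and RNA quality in the spread of the members was not tested. In bulk samples, fewer cells of a type and less RNA per cell cannot be told apart.

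Profiles over the 4 libraries were compared by the root mean square distance between log2 CPM values centred per gene, over 45 pairs of members. Jun, Junb, Egr1 and Ier2 lay close together, at distances of 0.12 to 0.18, all with small ranges. Fos and Fosl1 lay 0.12 apart, with Fosb at 0.35 and 0.40 from them, and Jund and Atf3 lay 0.34 apart. The widest distance was 1.34, between Fosl2 and Jund, which also had the largest mean distances to the other members (0.85 each). The 5 genes nearest to the mean profile of the members were Mrps18a, Arpc4, Aar2, Rpl21-ps15 and Mrpl40, at distances of 0.026 to 0.043. With 4 libraries and 17128 tested genes, such distances describe the libraries only. Rpl21-ps15 is uncertain, because a pseudogene can share reads with its parent gene.

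Other immediate early genes split in direction. Of 26 tested, 7 were higher and 9 lower in both knockouts, where 25.8% of all tested genes were higher and 24.9% lower, and edgeR called 0 (2 higher and 4 lower at an unadjusted p under 0.05). The median log2 fold change was -0.19, but -0.81 without knockout 1, 0.043 without knockout 2, 0.19 without control 1 and -0.50 without control 2. In the lists that follow, edgeR likewise called 0 genes. At an unadjusted p under 0.05 in edgeR, 7.32% of all tested genes were higher and 9.89% lower, for comparison in each list. Egr2, a zinc finger factor related to Egr1, stood at 154 and 233 CPM in the knockouts, against 88.8 and 94.6 CPM in the controls (log2 fold change 1.08, SE 0.35, edgeR adjusted p = 0.208). Nr4a2, an orphan nuclear receptor, stood at 176 and 117 CPM in the knockouts, against 78.7 and 58.9 CPM in the controls (1.09, SE 0.37, edgeR adjusted p = 0.212). For both, the groups did not overlap. Arc, best known as an activity-induced gene of neurons, stood at 43.1 and 37.1 CPM in the knockouts, against 132 and 92.2 CPM in the controls (log2 fold change -1.48, SE 0.36, edgeR adjusted p = 0.165). Sik1, a kinase gene induced by cAMP, stood at 23.0 and 29.5 CPM in the knockouts, against 59.5 and 71.4 CPM in the controls (-1.32, SE 0.36, edgeR adjusted p = 0.174). In DESeq2, Arc, Sik1 and Zfp36l1 passed as lower, 3 of the 26, with adjusted p = 0.0151 for Arc and 0.0471 for Sik1, where 5.18% of genes with an adjusted p were called lower.

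Of 16 tested bZIP factors that can pair with or compete with AP-1, 1 was higher and 8 were lower in both knockouts. Over all tested genes these shares were 25.8% higher and 24.9% lower. The median log2 fold change was -0.23. At an unadjusted p under 0.05 in edgeR, 1 was higher and 2 were lower, against 7.32% and 9.89% of all tested genes. The higher one was Batf3, a factor of dendritic cells and lymphocytes that pairs with Jun proteins, which had 220 and 130 counts in the knockouts, against 25 and 18 in the controls. It was 6.42-fold higher (log2 fold change 2.68, SE 0.70), with an adjusted p of 0.171 in edgeR and 0.0109 in DESeq2, which called 2.47% of genes higher. Mafk, a small Maf protein, averaged 52.5 ± 4.39 CPM in the knockouts and 105 ± 20.2 CPM in the controls (SD, n = 2 each). Creb5, a CRE-binding factor, averaged 12.7 ± 0.710 CPM in the knockouts and 29.0 ± 14.8 CPM in the controls, and Atf7 47.6 ± 4.75 CPM in the knockouts and 36.5 ± 15.5 CPM in the controls (SD, n = 2 each). Mafk, Creb5 and Atf7 did not pass (edgeR adjusted p = 0.212, 0.282 and 0.708). For Creb5 the log2 fold change was -1.19, and -0.58 without control 2.

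The 19 kinases and SRF cofactors upstream of the members had a median log2 fold change of -0.11. Groups did not overlap for 5 genes with more and 4 with less CPM in the knockouts, against 25.8% and 24.9% of all tested genes. Unadjusted edgeR p-values under 0.05 were found for 3 higher and 3 lower genes, and DESeq2 called 0 of the list. The median turned positive without knockout 1 (0.17), without control 1 (0.17) and without control 2 (0.12). Mapk9, which encodes the Jun kinase JNK2, averaged 71.0 ± 22.4 CPM in the knockouts and 28.4 ± 6.57 CPM in the controls (SD, n = 2 each). Map2k1, which encodes the ERK kinase MEK1, averaged 168 ± 7.11 CPM in the knockouts and 83.5 ± 13.3 CPM in the controls. Elk4, an SRF partner, averaged 22.4 ± 2.74 CPM in the knockouts and 50.4 ± 1.65 CPM in the controls, and Map3k1, a kinase upstream of JNK, 26.5 ± 9.43 CPM in the knockouts and 57.8 ± 3.66 CPM in the controls. The groups did not overlap for these 4 genes, and none passed (edgeR adjusted p of 0.192 to 0.228).

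Dual-specificity phosphatases and other feedback inhibitors dampen MAP kinase and cytokine signals. Of 12 tested, 0 were higher and 7 lower in both knockouts, against 25.8% of all tested genes higher and 24.9% lower. The median log2 fold change was -0.54, and 4 were lower at an unadjusted p under 0.05. With 1 library left out, the median lay between -0.86 (without control 2) and -0.29 (without control 1). Dusp2, a phosphatase gene expressed in leukocytes, stood at 92.0 and 37.6 CPM in the knockouts, against 382 and 436 CPM in the controls. It was 6.31-fold lower (log2 fold change -2.66, SE 0.49), with an adjusted p of 0.150 in edgeR and 8.7e-06 in DESeq2. It passed edgeR without knockout 1 (-3.43) or without control 1 (-2.72). Dusp5, a nuclear ERK phosphatase gene, stood at 7.11 and 11.9 CPM in the knockouts, against 49.9 and 29.8 CPM in the controls, with an adjusted p of 0.163 in edgeR and 0.00409 in DESeq2. The leukocyte sums above were also lower in both knockouts, and their part in the values of Dusp2 and Dusp5 was not tested. Socs3 and Dusp8 overlapped between the groups, with log2 fold changes of 0.23 and 0.29 (edgeR adjusted p = 0.859 and 0.886).

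Heat shock genes, which cell dissociation can also raise, had a median log2 fold change of 0.098. In both knockouts, 3 of 14 were higher and 0 lower, where 25.8% of all tested genes were higher and 24.9% lower. At an unadjusted p under 0.05, 1 was higher, and DESeq2 called 0. The median was -0.28 without knockout 1, 0.59 without knockout 2 and 0.43 without control 1. All 14 were higher in knockout 1 than in knockout 2, and 11 were higher in control 1 than in control 2. Bag3, a co-chaperone gene, stood at 317 and 302 CPM in the knockouts, against 170 and 94.5 CPM in the controls, and Dnajb4 at 109 and 55.5 CPM in the knockouts, against 51.5 and 27.9 CPM in the controls. Neither passed (edgeR adjusted p = 0.202 and 0.326). Hspa8 and Hsp90ab1, abundant chaperone genes, had log2 fold changes of -0.24 and -0.32 with overlapping groups.

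Genes of the integrated stress response and the GADD family, which share inducers with Atf3, had a median log2 fold change of -0.53, and between -0.76 (without control 2) and -0.38 (without control 1) with 1 library left out. Of 11 tested, 0 were higher and 5 lower in both knockouts, where 25.8% of all tested genes were higher and 24.9% lower. Of these 5, 2 had an unadjusted p under 0.05. Ddit4, an inhibitor of mTOR signalling, stood at 55.0 and 85.1 CPM in the knockouts, against 182 and 194 CPM in the controls (log2 fold change -1.42, SE 0.36), with an adjusted p of 0.165 in edgeR and 0.0214 in DESeq2. Trib3, a pseudokinase gene, stood at 7.93 and 9.90 CPM in the knockouts, against 61.3 and 12.2 CPM in the controls, with an adjusted p of 0.237 in edgeR and 0.0371 in DESeq2. The fitted log2 value of Trib3 was -2.04 with all libraries, -0.43 without control 1 and -2.81 without control 2. As for Atf3, control 1 stood far above the other 3 libraries. Asns and Ppp1r15a overlapped between the groups (log2 fold changes of 0.39 and 0.082).

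Of 19 tested genes known as AP-1 targets, 4 were higher and 3 lower in both knockouts. Over all tested genes these shares were 25.8% higher and 24.9% lower. At an unadjusted p under 0.05 in edgeR, 1 was higher and 2 lower, against 7.32% and 9.89% of all tested genes. The median log2 fold change was -0.10 with all libraries. The median was -0.84 without knockout 1, 0.25 without knockout 2, 0.47 without control 1, -0.54 without control 2, 0.086 in limma-voom and 0.092 with the replicate block. Mmp3, a matrix metalloproteinase gene, stood at 16.8 and 2.52 CPM in the knockouts, against 110 and 166 CPM in the controls. It was 14.2-fold lower (log2 fold change -3.83, SE 0.85), with an adjusted p of 0.161 in edgeR and 2.2e-06 in DESeq2. In edgeR it passed without knockout 1 (-5.76) or without control 1 (-4.06), and the log2 fold change was -2.99 without knockout 2. Cd44, an adhesion receptor gene, averaged 54.0 ± 9.11 CPM in the knockouts and 119 ± 22.1 CPM in the controls (SD, n = 2 each). Ccnd1, the cyclin D1 gene, averaged 119 ± 12.0 CPM in the knockouts and 52.2 ± 21.6 CPM in the controls, and Hbegf, an EGF receptor ligand gene, 104 ± 5.94 CPM in the knockouts and 73.8 ± 0.249 CPM in the controls. Cd44, Ccnd1 and Hbegf did not pass (edgeR adjusted p = 0.191, 0.212 and 0.484).

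**Figure D4:**
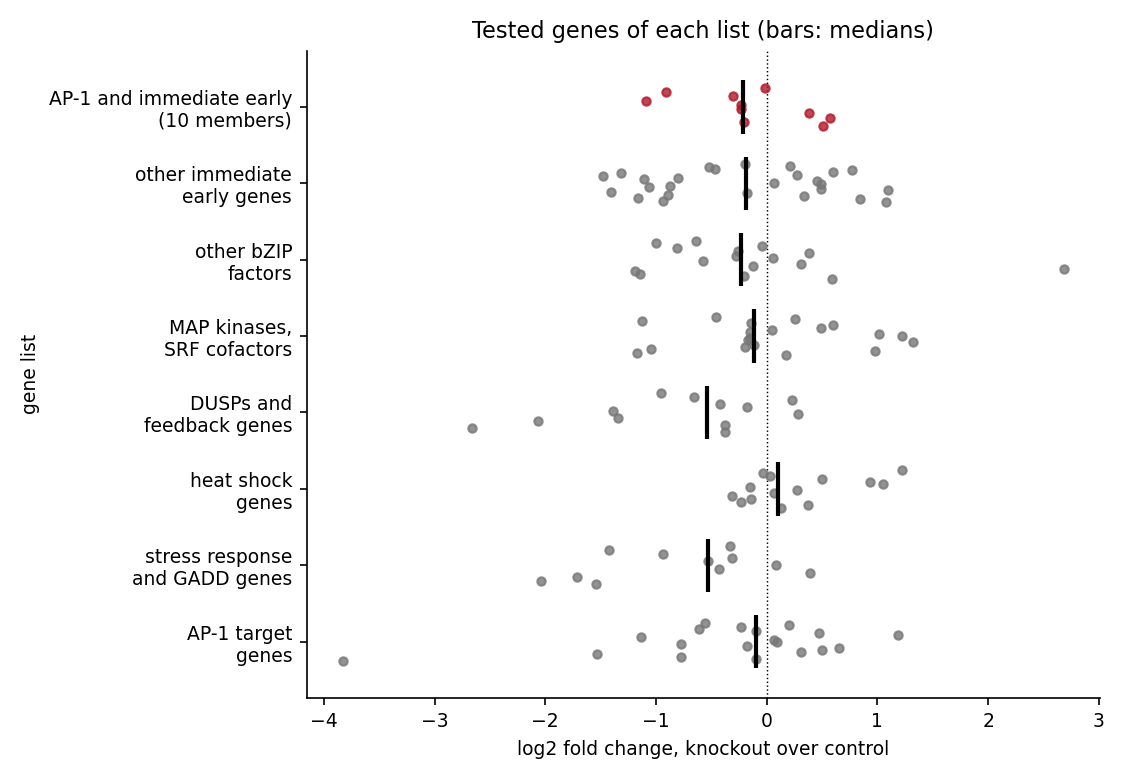
Log2 fold change, knockout over control, of each tested gene of 8 lists, with medians as black bars. The 10 members (red) lie between -1.09 and 0.57 with a median of -0.22, and the most negative list medians are those of the phosphatase and feedback genes (-0.54) and the stress response and GADD genes (-0.53).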

How the data were processed

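Deposited counts are whole reads assigned to each gene, in 4 libraries of polyA RNA, with no normalisation by the authors. Per the labels' protocols, cDNA came from oligo-dT priming and template switching and was amplified in PCR, so copies cannot be told from molecules and depth limits cover counting error only. GRCm38, Bowtie2 2.3.5.1, featureCounts 2.0.1 and Trim Galore 0.6.6 are listed, per the submitters' processing notes. Not given in the sources used here: annotation release, strand setting and treatment of shared reads. Of 55487 gene IDs, 55227 matched GENCODE M21, the source of symbols, positions and exon lengths. Columns were matched to samples by name.

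The main test was edgeR 4.0.16 (R 4.3.3; TMM, filterByExpr, quasi-likelihood F-test, genotype only, two-sided, Benjamini-Hochberg threshold 0.05) on 17128 genes. The SE is the absolute log2 fold change over the square root of F, and the approximate 95% intervals use its t quantile. Log2 CPM used a prior count of 2. The biological coefficient of variation was 49.2%. A chi-square test of counts gave 79.5 per gene within the knockouts and 130 within the controls, far above sampling noise. Alternatives were DESeq2 1.42.0, limma-voom (limma 3.58.1), other scalings and filters, a replicate block and leaving out each library. The members and the 14 lists were chosen with earlier results of these data known. Named genes are all members, Paxip1, the 2 smallest p-values per direction in each list, where none passed, and the 5 nearest profiles. Marker lists are given mostly as sums. Tek, Barx1 and Zfp36l1 were named after their values were seen.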

Additional observations from a re-analysis of the deposited data

How the results depend on the processing

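None of the 10 members was called in any of the 11 alternatives except Fos, the 1 member called higher without control 1. Over all genes, against 0 called higher and 0 lower by edgeR, there were 458 higher and 959 lower in DESeq2, 449 and 1005 without the filter on low counts, where the prior degrees of freedom were infinite, and 59 and 185 with the replicate block. With 1 library left out, 0 to 215 genes were higher and 0 to 703 lower, and members called higher ranged from 0 to 1. Same-numbered libraries deviated together weakly (r = 0.145 across genes), and with 2 pairs the numbers were not taken as pairing. With the replicate block Fosb had a log2 fold change of 0.20, and in limma-voom 0.21, against -0.20, and Ier2 had 0.025 without composition scaling. In fits that each lacked a library, the median log2 fold change of the members ran from -0.44 to 0.14, and single values spanned -0.15 to 1.62 for Fos, -0.97 to 1.36 for Fosb, -0.11 to 1.78 for Fosl1, -0.51 to 0.077 for Jun, -2.00 to 0.13 for Jund, -1.67 to 0.62 for Atf3 and -0.18 to 0.15 for Ier2. Likewise, Socs3 spanned -0.30 to 0.99, Dusp8 -0.76 to 0.91, Hsp90ab1 -0.71 to 0.045, Hspa8 -0.63 to 0.12 and Ppp1r15a -0.088 to 0.27. The median of all genes shifted to -0.22 in DESeq2 and -0.21 without the filter, and that of the members was -0.24 and -0.23.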
